A study of Mus musculus with 4 samples.

Results

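*Hap1* and 8 genes around it were followed in brain endothelial cells (ECs) of *Foxq1* conditional knockout (cKO) embryos. The other 8 were *Htt*, the IP3 receptor genes *Itpr1*, *Itpr2* and *Itpr3*, and *Mcu*, *Micu2*, *Letm1* and *Vdac1*, whose products act on mitochondrial membranes. They were picked by symbol from a table of 12693 gene symbols, and all 9 were present. The 9 genes were chosen by name with their normalized counts in both genotypes already known, so their differences between genotypes are given below as a description, without a test. A list of 133 other genes of the same pathway, in 8 groups, was also examined, and the 114 in the table were tested.

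The RNA came from 2 wild-type and 2 FOXQ1fl/fl;Tie2-Cre samples (*Foxq1* cKO) of strain C57BL/6 at embryonic day 18. Per the study's methods, CD31-positive cells had been sorted from the cerebral cortex, and the controls were littermates without the Cre transgene. Whether these controls carried the floxed allele, and whether a sample was 1 embryo or a pool, is not given in the sources used here, so p-values measure only the spread between these samples, which may be technical. Tie2-Cre acts in endothelial cells and also in blood-forming cells, so the deletion is not restricted to endothelium. The labels name the tissue only as brain and give 2 µg of total RNA as input, whereas the study's text describes Smart-seq2, a protocol for small amounts of RNA.

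HAP1 is a cytoplasmic adaptor, best known in neurons, that binds huntingtin and motor proteins and associates with the type 1 IP3 receptor. IP3 receptors are channels of the endoplasmic reticulum (ER) that release calcium when phospholipase C makes IP3. Where the ER touches a mitochondrion, the released calcium crosses the outer membrane through VDAC channels and the inner membrane through the uniporter MCU, which MICU proteins gate, and inside it activates dehydrogenases of the tricarboxylic acid cycle.

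The samples held between 15827166 and 21466436 reads on listed genes. The targeted gene *Foxq1* had 353 and 297 normalized counts in wild-type against 5.44 and 32.6 in *Foxq1* cKO samples, 5.84% of the wild-type mean. All 14 endothelial markers were listed, among them *Cldn5* with 126706 to 151977 normalized counts. Of 19 neuronal markers 11 were listed, from *Map2* with 1426 to 1952 and *Dcx* with 1004 to 1755 normalized counts to *Slc17a6* with 30.3 to 131. *Nefl*, *Nefm*, *Gad1*, *Slc17a7*, *Slc32a1*, *Tbr1* and *Eomes* were among those not in the table. Every listed gene had at least 1 read in each sample, so an absent gene may still have had reads in some samples. The summed endothelial markers were lower in *Foxq1* cKO samples (344634 to 383502) than in wild-type (393054 to 429601), and 7 of the 14 were lower without overlap, with 1 higher, where 18.03% and 17.95% of all genes tested were so. The summed microglial and macrophage markers (10 of 10 listed) were also lower, at 7808 to 8914 against 10289 to 13020. Of these markers, 3 were lower and 0 higher without overlap, where 18.03% and 17.95% of all genes tested were so. The radial glial and astrocytic sums (10 of 10) nearly met, at 24224 to 27530 against 27593 to 27863. Of that list, 4 were lower and 2 higher without overlap, against the same shares of all genes. The summed mural markers (5 of 8 listed) overlapped, at 125884 to 129837 in wild-type and 122908 to 131232 in *Foxq1* cKO samples. The libraries thus also held mural RNA, and the values below are not of endothelial cells alone. The summed levels of oligodendrocyte lineage markers (3 of 7), erythroid markers (7 of 12) and fibroblast markers (2 of 4) overlapped between the genotypes as well. In bulk samples, fewer cells of a type and less RNA per cell cannot be told apart.

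The 9 genes lie on 6 chromosomes in the GRCm38 annotation. *Hap1* is the most compact, at chr11:100347327-100356128 on the minus strand, a span of 8802 bp with 12 exons in its longest transcript. *Vdac1* lies on the same chromosome at chr11:52360860-52389397. *Itpr1* (chr6:108213096-108551109, 62 exons) and *Itpr2* (chr6:146108299-146502223, 56 exons) cover 338014 and 393925 bp, and *Itpr3* (chr17:27057304-27122223, 58 exons) covers 64920 bp. *Htt* (chr5:34761740-34912534) has 67 exons, and *Letm1* (chr5:33739673-33782817) has 14. *Mcu* is at chr10:59446984-59616692 and *Micu2* at chr14:57916261-57999262. A noncoding gene on the same strand, *Gm20394*, lies within the span of *Hap1* and shares 0 bp of exon with it. Antisense transcripts share 108 and 181 bp of exon with *Itpr1* and 233 bp with *Itpr3*, and whether the counting used the strand is not given in the sources used here.

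Promoter windows of 300 bases, from 250 bases before the start site to 50 bases from it, were taken from RefSeq (GRCm38) for the 8 members in that table. They are shown because GTTTC is the motif the study reports for FOXQ1 sites near the start sites of *Adck1* and *Hap1*. The study also shows FOXQ1 signal at the *Hap1* promoter. It annotated peaks over a wider span around start sites than these windows, so the windows need not hold its site at *Hap1*. GTTTC, or its reverse complement GAAAC, occurred in the windows of 2 of the 8 members, *Mcu* and *Micu2*, and in 45.0% of all 32851 promoter windows. The forkhead core TGTTTA (reverse complement TAAACA) occurred in none of the 8 and in 13.4% of all windows. An absent match says only that these letters are not in the window. The 250 bases before 1 of the 2 annotated start sites of *Hap1*, which hold neither motif, are printed first, on the minus strand at chr11:100356129-100356378. The second and the third line give 29 bases around the match, which is in capitals, in *Mcu* (chr10:59616669-59616697, minus strand) and in *Micu2* (chr14:57999404-57999432, minus strand). The match begins at base 8 of the transcript in *Mcu* and 158 bases before the start site in *Micu2*, where it is on the opposite strand.
Hap1: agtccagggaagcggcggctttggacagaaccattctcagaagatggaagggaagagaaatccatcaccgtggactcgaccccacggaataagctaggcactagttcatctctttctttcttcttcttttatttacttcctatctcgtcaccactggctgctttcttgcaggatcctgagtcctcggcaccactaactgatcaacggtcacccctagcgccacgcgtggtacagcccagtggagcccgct
Mcu: tgggccagcgccGTTTCcagttgagagat
Micu2: tcctttgccttgGAAACtgtcaccggagc

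Normalized counts, that is reads divided by a size factor per sample, were then compared gene by gene. Wild-type 1 had 307 normalized counts of *Hap1* and wild-type 2 had 145, against 67.5 and 77.3 in *Foxq1* cKO 1 and 2. These values rest on 62 to 364 reads per sample. Both *Foxq1* cKO samples were below both wild-type samples, and the wild-type pair was far more spread, by 2.12-fold against 1.15-fold. The means were 226 ± 115 (SD, n = 2) and 72.4 ± 6.94 (SD, n = 2), so *Foxq1* cKO samples held 32.1% of the wild-type level. The log2 fold change on normalized counts plus 1 was -1.53 (standard error 0.741). It was -0.99 without wild-type 1 and -2.07 without wild-type 2. The summed neuronal markers, 5956 to 6782 in wild-type and 4547 to 6275 in *Foxq1* cKO samples, overlapped between the genotypes. Of the 11 listed, 1 was lower without overlap (*Map2*) and 1 was higher, where 18.03% and 17.95% of all genes tested were so. The median log2 fold change of the 11 was -0.38, against 0.0086 over all genes. Their part in the *Hap1* difference was not tested.

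*Htt*, which encodes the HAP1 partner huntingtin, differed in the other direction. It had 548 and 461 normalized counts in wild-type against 1448 and 654 in *Foxq1* cKO samples. Both *Foxq1* cKO samples were above both wild-type samples, but the difference was much larger in *Foxq1* cKO 1. The log2 fold change was 0.95 (standard error 0.465), and 0.38 without *Foxq1* cKO 1. Per length, the ratio of *Htt* to *Hap1* was 0.275 and 0.491 in wild-type against 3.31 and 1.30 in *Foxq1* cKO samples.

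The 3 IP3 receptor genes differed in direction. *Itpr1* encodes the receptor type that HAP1 associates with. It had 1205 and 1162 normalized counts in wild-type against 1660.2 and 1454 in *Foxq1* cKO samples, with both of the latter higher, and a log2 fold change of 0.39 (standard error 0.246). *Itpr2*, the receptor gene with the most reads here, had 3320 and 3049 in wild-type against 2353 and 2732 in *Foxq1* cKO samples. Both *Foxq1* cKO samples were lower, with a log2 fold change of -0.33 (standard error 0.194), while the summed endothelial markers were lower in the same samples. Their part in this difference was not tested. *Itpr3* had 675 and 472 in wild-type against 458 and 480.2 in *Foxq1* cKO samples. Its groups overlapped, and the log2 fold change of -0.27 (standard error 0.401) came to -0.0075 without wild-type 1.

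To compare the receptor genes with each other, normalized counts were divided by exon length and scaled to sum to 1000000 in each sample. On this scale *Itpr1* made up 18.03% and 19.7% of the receptor total in wild-type against 30.2% and 25.0% in *Foxq1* cKO samples. *Itpr2* made up 61.5% and 64.02% in wild-type against 52.9% and 58.2% in *Foxq1* cKO samples, so it was the most abundant of the 3 in every sample. *Itpr3* made up 20.5% and 16.3% in wild-type against 16.9% and 16.8% in *Foxq1* cKO samples. The ratio of *Itpr1* to *Itpr2* went from 0.293 and 0.308 in wild-type to 0.570 and 0.430 in *Foxq1* cKO samples. The summed level per length of the 3 genes was 71.2 and 63.8 in wild-type against 61.0 and 64.2 in *Foxq1* cKO samples, which overlap.

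**Figure D1:**
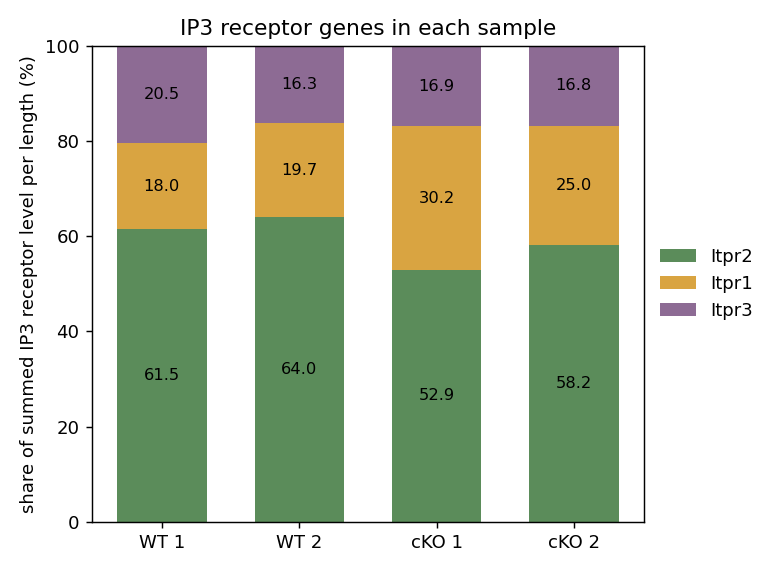
Each bar is 1 sample (WT, wild-type), split into the percentage of the summed IP3 receptor level per length that came from *Itpr2*, *Itpr1* and *Itpr3*. The *Itpr1* share is 18.03% and 19.7% in the wild-type bars and 30.2% and 25.0% in the *Foxq1* cKO bars, while *Itpr2* is the largest part of all 4 bars.

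The genotypes overlapped for the uptake genes *Mcu* and *Micu2*. *Mcu*, the pore of the uniporter, had 567 and 803 normalized counts in wild-type against 726 and 453 in *Foxq1* cKO samples. *Micu2*, a gatekeeper of that pore, had 154 and 251 in wild-type against 285 and 176 in *Foxq1* cKO samples. Both genes were higher in wild-type 2 and *Foxq1* cKO 1 than in the other two samples. Their log2 fold changes were -0.23 (standard error 0.418) for *Mcu* and 0.19 (standard error 0.625) for *Micu2*, and each changed sign when single samples were left out. The ratio of *Micu2* to *Mcu* per length was 0.612 and 0.704 in wild-type against 0.883 and 0.874 in *Foxq1* cKO samples.

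*Letm1* encodes an inner membrane protein of ion exchange. It had 1041 and 811 normalized counts in wild-type against 794 and 1027 in *Foxq1* cKO samples, a log2 fold change of -0.024 (standard error 0.321). *Vdac1* encodes an outer membrane channel. It had 1500 and 1245 in wild-type against 1214 and 1437 in *Foxq1* cKO samples, a log2 fold change of -0.049 (standard error 0.262). Both genes were higher in wild-type 1 and *Foxq1* cKO 2, the reverse of *Mcu* and *Micu2*, and both group means lay within the spread of the other group.

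Among the 9 genes, 2 were higher (*Htt* and *Itpr1*), 2 were lower (*Hap1* and *Itpr2*) and 5 overlapped between the genotypes. Over all 12472 genes with a mean of at least 10 normalized counts, 17.95% were higher without overlap and 18.03% were lower without overlap. Since the genes were picked with these values known, nothing is read from that count. The median log2 fold change was -0.05 over the 9 genes and 0.0086 over all genes.

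**Figure D2:**
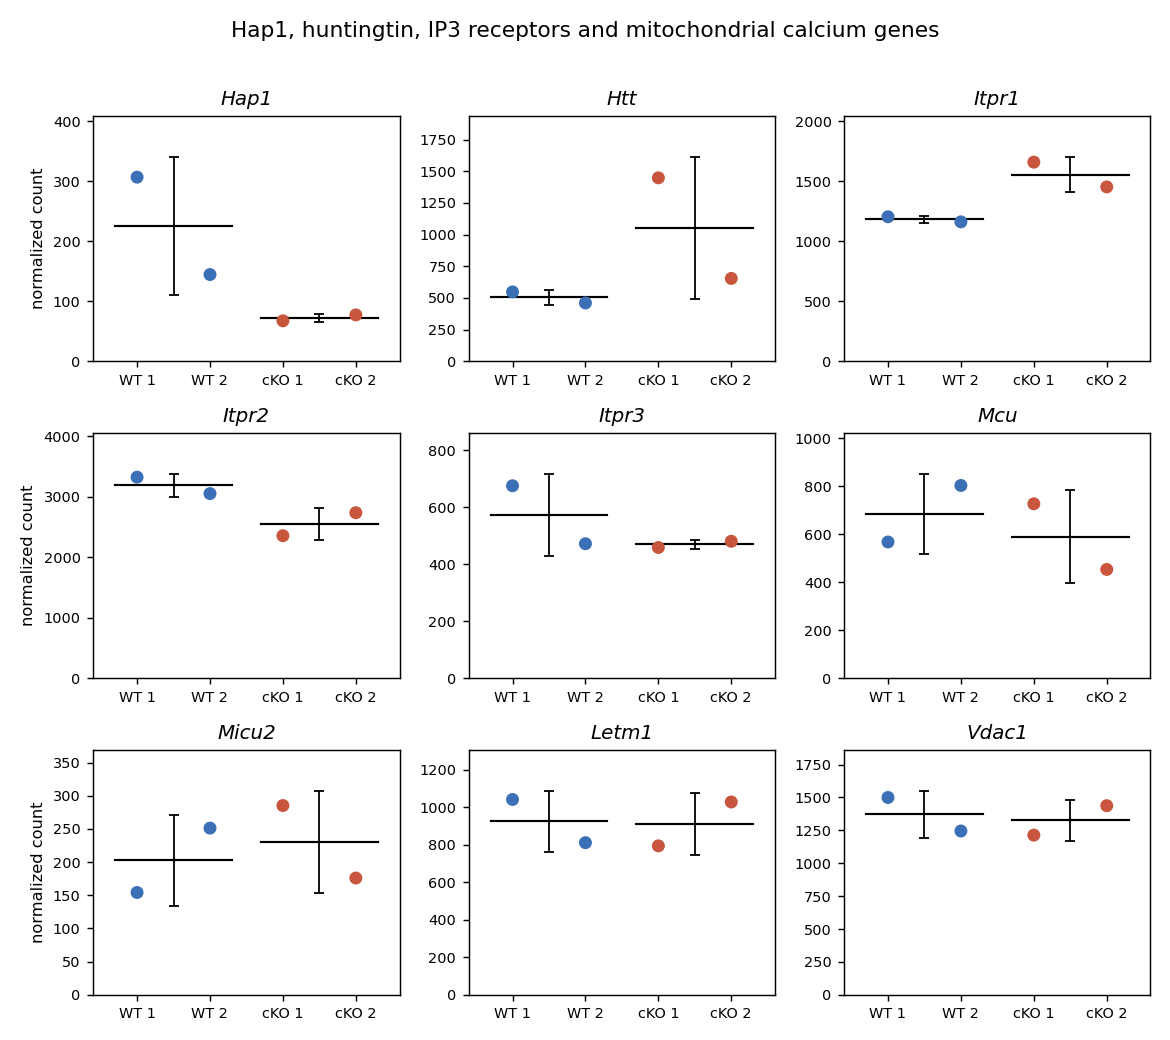
Normalized counts of the 9 genes in each sample (points; WT, wild-type in blue and *Foxq1* cKO in red), with the group mean (line) and SD (bar, n = 2) on axes that start at 0. *Hap1* and *Itpr2* are lower and *Htt* and *Itpr1* higher in both *Foxq1* cKO samples, and the points of the other 5 genes overlap.

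Levels of different genes were ordered per length. *Vdac1* was highest, with 94.1 to 112 over the 4 samples, followed by *Itpr2* with 32.3 to 43.8, and with the exon union as length neither range met that of another member. *Letm1* (16.7 to 21.6), *Mcu* (13.2 to 23.0), *Itpr1* (12.6 to 18.4), *Micu2* (9.76 to 18.8) and *Itpr3* (10.3 to 14.6) followed. Each of these 5 ranges overlapped that of its neighbour, so their order does not exceed the spread between samples. With the longest transcript in place of the exon union as length, *Mcu* (24.6 to 42.8) came before *Letm1* and met the range of *Itpr2* (31.6 to 42.8), which it exceeded in wild-type 2 and *Foxq1* cKO 1, and *Htt* came before *Itpr3* and *Hap1*. *Hap1* ranged from 3.64 to 15.9 and *Htt* from 3.74 to 12.03. *Hap1* was above *Htt* in both wild-type samples, at 15.9 and 7.61 against 4.38 and 3.74, and below it in both *Foxq1* cKO samples, at 3.64 and 4.16 against 12.03 and 5.42.

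**Figure D3:**
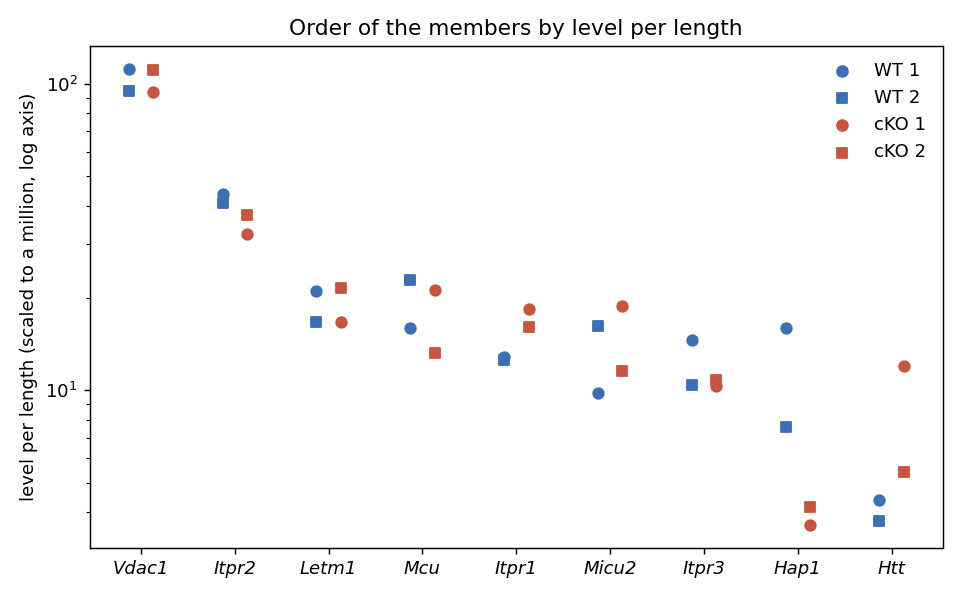
Level per length of each gene (log axis, scaled to sum to 1000000 in a sample) in the 4 samples, with circles for replicate 1, squares for replicate 2, blue for wild-type (WT) and red for *Foxq1* cKO. *Vdac1* and *Itpr2* stand above the rest in every sample, the next 5 genes overlap, and *Hap1* spans 3.64 to 15.9.

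Genes with profiles like that of *Hap1* were sought among 11402 genes with a mean of at least 50, by the Euclidean distance between log2 profiles centred over the 4 samples. The nearest 5 were *Axin1* (distance 0.143), a scaffold of the β-catenin destruction complex, *Faap24* (0.189), *Hdac9* (0.214), a histone deacetylase, *Gtf2ird1* (0.238) and *Usp43* (0.282). *Axin1* had 277 and 140 normalized counts in wild-type against 58.8 and 76.3 in *Foxq1* cKO samples, close to the values of *Hap1* throughout. All 5 shared the high value in wild-type 1. With 4 samples, such a likeness describes these libraries only.

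Of the 133 other genes of the pathway, 114 were listed and tested across genes with limma, and 19 were not in the table. At an unadjusted p under 0.05, 2 were higher in *Foxq1* cKO samples and 4 were lower, against 2.17% and 3.05% of all genes tested. These 6 genes are 5.26% of the list, close to the 5.22% called among all genes, so the list as a whole did not stand apart. Without overlap, 16 were higher and 26 were lower, against 17.95% and 18.03% of all genes tested. The median log2 fold change was -0.062 over the list and 0.0086 over all genes. After Benjamini-Hochberg adjustment 0 genes passed in limma, which is 0% of all genes tested, where 651 passed unadjusted. The deleted gene *Foxq1* did not pass either (limma, unadjusted p = 0.00507, adjusted p = 0.857), so a lack of adjusted calls does not show a lack of change. DESeq2 on the recovered reads gave 59 genes at an adjusted p under 0.05 and 804 unadjusted, and edgeR gave 0 and 614.

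**Figure D4:**
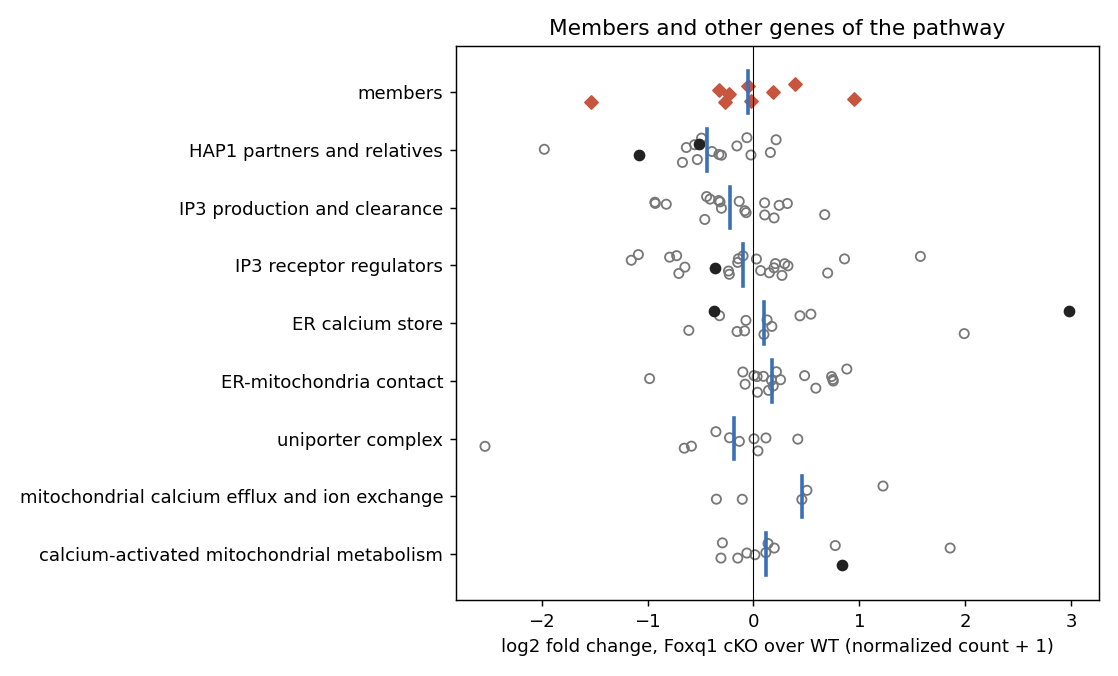
Log2 fold change of *Foxq1* cKO over wild-type (WT) for the 9 members (red diamonds) and for the other pathway genes by group (circles), filled in black at an unadjusted p under 0.05, with the median of each row as a blue line. *Stim1* lies farthest to the right at 2.98, and all medians lie within 0.5 of 0.

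Of the 13 store genes tested, 1 rose and 1 fell at an unadjusted p under 0.05, where 2.17% and 3.05% of all genes did. Without overlap, 2 were higher and 1 was lower, against 17.95% and 18.03% of all genes, and 10 overlapped between the genotypes. *Stim1* encodes the ER calcium sensor that opens plasma membrane channels when the store is empty. It had 48.9 and 94.7 normalized counts in wild-type, from 58 and 95 reads, and 513 and 578 in *Foxq1* cKO samples. *Stim1* rose 7.60-fold by the means, and its log2 fold change of 2.98 (standard error 0.638) reached an unadjusted p of 0.00331 in limma, where the adjusted p was 0.857. DESeq2, run on reads recovered from the table, gave *Stim1* an adjusted p of 0.00361. *Calr* encodes calreticulin, a calcium-binding chaperone of the ER lumen. It fell from 11234 and 13059 to 9190 and 9563, and limma gave a log2 fold change of -0.37 (standard error 0.138, unadjusted p = 0.0358). The call on *Calr* ended under quantile normalization (unadjusted p = 0.143), with eBayes without a trend (0.264) and without wild-type 2 (0.174), *Foxq1* cKO 1 (0.136) or *Foxq1* cKO 2 (0.0943). *Ryr2*, the gene of another ER release channel, had 33.7 and 15.0 in wild-type against 72.9 and 117 in *Foxq1* cKO samples, and its unadjusted p of 0.0763 did not pass.

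The group named HAP1 partners and relatives was broad and not limited to genes whose products bind HAP1. Among its 16 tested genes, 2 fell and 0 rose at an unadjusted p under 0.05, where 3.05% and 2.17% of all genes did. Of their log2 fold changes 2 were above 0, against 6323 of all 12472 genes tested, and the median was -0.44. *Kif5b*, a heavy chain of the kinesin-1 motor that HAP1 binds, fell from 9612 and 9289 to 6789 and 6475 (log2 fold change -0.51, standard error 0.134, unadjusted p = 0.00856). *Hip1r*, which encodes a clathrin and actin adaptor, fell from 954 and 1126 to 438 and 546 (log2 fold change -1.08, standard error 0.339, unadjusted p = 0.0184). The call on *Hip1r* ended without wild-type 2 (unadjusted p = 0.0662) or *Foxq1* cKO 1 (0.0927), and that on *Kif5b* with eBayes without a trend (0.137) or without *Foxq1* cKO 2 (0.052). *Ahi1* encodes a binding partner of HAP1. It had 454 and 256 normalized counts in wild-type against 34.8 and 211 in *Foxq1* cKO samples, with an unadjusted p of 0.0896. Without overlap, 6 of the 16 were lower and 0 were higher, against 18.03% and 17.95% of all genes. The summed endothelial markers were lower in the same samples, and their part in these differences was not tested.

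Of 18 tested genes of IP3 production and clearance, 0 passed in limma at an unadjusted p under 0.05, where 3.05% of all genes fell and 2.17% rose. Without overlap, 8 of the 18 were lower and 0 higher, against 18.03% and 17.95% of all genes. *Plcb4*, a phospholipase C gene, had 1941 and 1138 normalized counts in wild-type against 1054 and 576 in *Foxq1* cKO samples. *Plcd3*, another one, had 139 and 102 against 65.3 and 59.0. Their unadjusted p-values were 0.0708 and 0.265 in limma, and DESeq2 gave *Plcb4* an unadjusted p of 0.0312. Among 23 tested regulators of IP3 receptors, 1 fell and 0 rose at an unadjusted p under 0.05, where 3.05% and 2.17% of all genes did. Without overlap, 5 of the 23 were lower and 3 were higher, against 18.03% and 17.95% of all genes. Single libraries decided the values of *Itpripl2*, with 614 and 41.9 in wild-type against 584 and 399.8 in *Foxq1* cKO samples, and of *Cabp1*, with 36.2 and 148 against 46.8 and 22.4.

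At ER-mitochondria contacts, 0 of 18 tested genes passed in limma at an unadjusted p under 0.05, where 2.17% of all genes rose and 3.05% fell. Without overlap, 7 were higher and 0 were lower, against 17.95% and 18.03% of all genes. The median log2 fold change of this group was 0.18. *Pdzd8*, an ER tether, had 157 and 460 normalized counts in wild-type against 581 and 422 in *Foxq1* cKO samples, with an unadjusted p of 0.216. *Pacs2*, a sorting protein of these contacts, had 365 and 672 against 367 and 171, with an unadjusted p of 0.154. Both overlapped between the genotypes.

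In the uniporter complex, 0 of 10 tested genes passed in limma at an unadjusted p under 0.05, where 2.17% of all genes rose and 3.05% fell. Without overlap, 1 of the 10 was higher and 3 were lower, against 17.95% and 18.03% of all genes. *Mcub*, the paralogue of *Mcu* that lowers uptake when it enters the pore, had 94.4 and 236 normalized counts in wild-type against 50.1 and 12.2 in *Foxq1* cKO samples. Both *Foxq1* cKO samples were lower, at 18.8% of the wild-type mean, from 12 to 237 reads, and the unadjusted p of 0.0518 did not pass. The unadjusted p of *Mcub* was 0.0413 in DESeq2, 0.0425 under quantile normalization and 0.0462 with a pseudocount of 5, and without single samples it lay between 0.0364 (wild-type 1) and 0.226 (*Foxq1* cKO 2). *Micu3*, a further gatekeeper, had 256 and 253 in wild-type against 187 and 139 in *Foxq1* cKO samples (unadjusted p = 0.301). The ratio of *Mcub* to *Mcu* per length was 0.876 and 1.55 in wild-type against 0.363 and 0.142 in *Foxq1* cKO samples. With the longest transcript as length it was 0.363 and 0.642 against 0.150 and 0.0588, so *Mcub* was then below *Mcu* in every sample.

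Calcium leaves mitochondria through exchangers. Of the 5 tested genes of efflux and ion exchange, 0 passed in limma at an unadjusted p under 0.05, where 2.17% of all genes rose and 3.05% fell. Without overlap, 2 of the 5 were higher and 1 was lower, against 17.95% and 18.03% of all genes. *Tmem65*, an inner membrane protein of this route, had 161 and 161 normalized counts in wild-type against 455 and 311 in *Foxq1* cKO samples (unadjusted p = 0.0658). *Slc8b1*, the sodium-calcium exchanger, had 470.2 and 359 in wild-type against 358 and 949 in *Foxq1* cKO samples, so its mean rested on *Foxq1* cKO 2. Of 11 tested genes of calcium-activated metabolism, 1 rose and 0 fell at an unadjusted p under 0.05, where 2.17% and 3.05% of all genes did. Without overlap, 1 of the 11 was higher and 2 were lower, against 17.95% and 18.03% of all genes. *Idh3a* encodes the catalytic subunit of the isocitrate dehydrogenase that calcium activates. It rose from 1036 and 1082 to 2040.1 and 1753, and its log2 fold change of 0.84 (standard error 0.244) had an unadjusted p of 0.0138, which was 0.104 without *Foxq1* cKO 1. *Slc25a13*, an aspartate-glutamate carrier that calcium stimulates, ranged from 12.6 in wild-type 1 to 224 in *Foxq1* cKO 2, with overlapping groups.

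**Figure D5:**
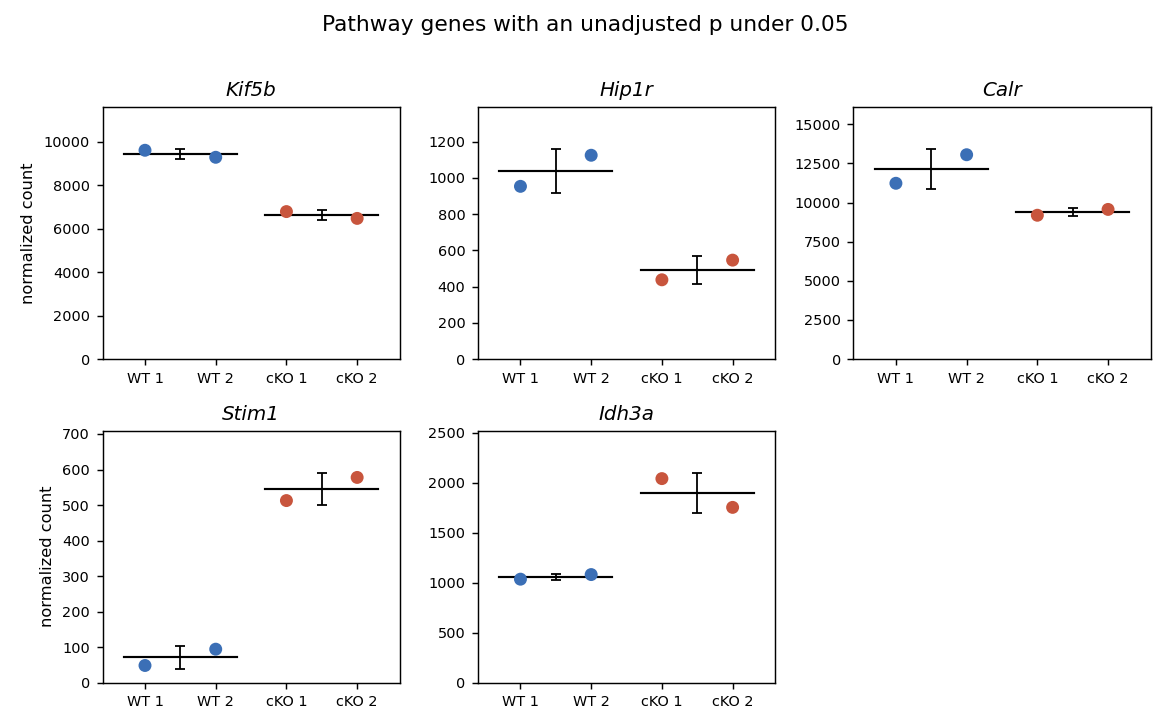
Normalized counts per sample (points), group mean (line) and SD (bar, n = 2) of 5 pathway genes with an unadjusted p under 0.05, outside the receptor regulators (WT, wild-type in blue; *Foxq1* cKO in red; axes start at 0). *Stim1* and *Idh3a* are higher in both *Foxq1* cKO samples, and *Kif5b*, *Hip1r* and *Calr* are lower.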

How the data were processed

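The authors deposited 1 table of normalized counts, a signal per gene, for all 4 samples. The submitters' processing notes name Bowtie2 2.2.3, TopHat2 2.0.12, HTSeq 0.6.0 and mm9. The 1207361 lines were reduced to 12693 symbols, of which 8 had 2 identifiers with identical values. Dividing by the smallest value of a column gave whole reads for 100% of values (tolerance 0.01), 15827166 to 21466436 per sample, and each listed gene had at least 1 read in every sample, so complete losses are not seen. Because the unit was a signal, limma 3.58.1 (R 4.3.3, eBayes with a trend) was run on log2 of the value plus 1 over 12472 genes whose mean was at least 10, with Benjamini-Hochberg adjustment. The recovered reads were also tested with edgeR 4.0.16 (glmQLFTest) and DESeq2 1.42.0. An exact two-sided permutation test of 1 gene cannot go below p = 0.333 here. Exon lengths came from GENCODE (GRCm38), matched to 12678 symbols, since no mm9 annotation was used. The tests were tested on simulated data.

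The members and gene lists were chosen with earlier results of these data known. Named were the 9 members, *Foxq1*, pathway genes with an unadjusted p under 0.05, the 2 largest changes per group with a mean of at least 50, and the 5 genes nearest to *Hap1*. *Pacs2*, *Pdzd8* and other genes named without a call follow from that rule. Alternatives were pseudocounts of 0.1 and 5, scaling by quantiles or TMM, a minimum mean of 0 or 50, a replicate block, eBayes without a trend, each sample left out, and the longest transcript as gene length. Protein sequences were not used here, and the values of 1 pathway gene that was counted are not reported here.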

Additional observations from a re-analysis of the deposited data

How the results depend on the processing

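The log2 fold changes of the 9 members stayed within the spread between replicates in the 10 alternatives that kept all 4 samples. With another minimum mean, eBayes without a trend or the replicate block they cannot change by construction, so those alternatives did not test them. Only the other pseudocounts, the other scalings, DESeq2 and edgeR could move these log2 fold changes. Leaving out each sample in turn gave -2.07 to -0.99 for *Hap1*, 0.38 to 1.53 for *Htt*, 0.30 to 0.49 for *Itpr1*, -0.44 to -0.22 for *Itpr2* and -0.52 to -0.0075 for *Itpr3*, and it crossed 0 for *Mcu* (-0.57 to 0.11), *Micu2* (-0.16 to 0.54), *Letm1* (-0.21 to 0.16) and *Vdac1* (-0.18 to 0.085). In these fits the lone sample is assumed to vary like the other group.

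The 651 genes at an unadjusted p under 0.05 came to 276 without *Foxq1* cKO 1 and 1569 without wild-type 2, and the pathway genes, 6 in all, to between 4 and 12 (12 without wild-type 1 and 11 without wild-type 2), with 1 to 7 higher and 3 to 5 lower. The pathway median ran from -0.074 to 0.019 in those fits. At an adjusted p under 0.05, DESeq2 gave 59 genes in place of 0. The pathway count of higher genes was 4 under quantile normalization and 4 with eBayes without a trend, where that of lower genes was 2. *Stim1*, *Idh3a* and *Hip1r* kept an unadjusted p under 0.05 in all 10 alternatives with 4 samples, *Kif5b* in 9 and *Calr* in 8. With single samples left out, *Stim1* kept it in each fit, and the others lost it in at least 1. *Itpripl2* reversed to -0.35 without wild-type 2, within a range that reached 3.50, and *Slc8b1* to -0.20 without *Foxq1* cKO 2, within a range that reached 1.21. The causes were not tested.

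With the longest transcript as length, the wild-type and *Foxq1* cKO shares were 26.3% and 36.9% for *Itpr1*, 59.8% and 50.9% for *Itpr2* and 13.9% and 12.2% for *Itpr3*, by the change of length alone. Same-numbered samples share only a number: the deviations of the pairs correlated at 0.0325 across genes. With the replicate block, 693 genes had an unadjusted p under 0.05, 8 of them pathway genes. In this balanced design the block cannot change a log2 fold change, so the -1.53 of *Hap1* was not tested by it.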
